A study of Mus musculus with 6 samples.

Results

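The genes described here are 32 members of cholesterol synthesis and of its control by SREBP2, chosen by symbol from a table that lists 52089 symbols. Of the 32 genes, 31 were found by their own symbol, and *Msmo1* was found under its older symbol *Sc4mol*. The libraries came from primary brite adipocytes, cells of 129SvEv mice grown from the stromal-vascular fraction of inguinal WAT (white adipose tissue). They were given 2 days of induction and 1 day of differentiation with rosiglitazone, an agonist of PPARγ that induces browning. In 3 libraries the lncRNA *Ctcflos* was knocked down with an LNA gapmer antisense oligonucleotide (ASO), a short modified DNA strand that directs RNase H to its target RNA. The other 3 libraries received a nontargeting control oligonucleotide. Both oligonucleotides were used at 50 nM. The labels name more than 1 harvest time, and 24 h after transfection was taken from the study's own account of its transcriptome profiling. A single oligonucleotide against *Ctcflos* was used for these libraries, so effects of the target and of the oligonucleotide cannot be told apart. The labels do not say whether the 3 libraries of a group were separate cultures, and p-values therefore measure the spread between these libraries, which may be technical.

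Cholesterol is made from acetyl-CoA through mevalonate and farnesyl pyrophosphate, from which squalene, lanosterol and finally cholesterol are formed. When sterols are scarce in the endoplasmic reticulum, SCAP escorts the membrane-bound transcription factor SREBP2 to the Golgi, where proteases release its active part and transcription of the synthesis and uptake genes rises. When sterols are plentiful, INSIG proteins hold SCAP and SREBP2 back, SOAT1 esterifies cholesterol for storage, and the oxysterol-activated liver X receptors (LXR, encoded by *Nr1h2* and *Nr1h3*) switch on the efflux pumps ABCA1 and ABCG1.

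The values are RPKM, that is, reads scaled to the length of the transcript and to the mapped reads of the library. The depth recovered from the values was 60.8 to 75.5 mio reads in the *Ctcflos* KD libraries and 62.9 to 79.2 mio in the controls, with mates counted singly, so that 1 read on 1 kb of transcript gave 0.0126 to 0.0165 RPKM. The targeted *Ctcflos* (listed as *1300015D01Rik*) was at 0.0969, 0.0705 and 0.210 RPKM in KD libraries 1, 2 and 3 and at 0.748, 0.751 and 0.840 RPKM in control libraries 1, 2 and 3. All KD libraries were below all controls, at 16.1% of the control mean, and the log2 fold change was −0.66 (SE 0.0840, adjusted p = 0.025 in limma-trend over the 38335 genes with a value above 0). The summed RPKM of 8 adipocyte markers was 4686 to 6182 in KD and 6331 to 7022 in control libraries, without overlap, although none of the 8 was called. *Fabp4* and *Adipoq*, at control means of 4041 and 1187 RPKM, made up most of this sum. The groups overlapped in *Cidec*, *Cd36* and *Lipe*, and all KD libraries were below all controls in the other adipocyte markers. The 8 stromal markers summed to 503 to 779 RPKM in KD and 663 to 910 RPKM in control libraries, with overlap. Of these, only *Pdgfra* was called, and it was lower. *Pdgfrb*, *Lum* and *Col1a1* had log2 fold changes from 0.05 to 0.17, and *Dcn*, *Col3a1*, *Thy1* and *Ly6a* from −0.42 to −0.06. Macrophage markers summed to 6.71 to 18.7 RPKM in KD and 8.46 to 30.5 RPKM in control libraries, with 6 of 8 under the filter on low values and *Cd68* called higher. Endothelial markers summed to 2.36 to 2.90 RPKM in KD and 3.12 to 3.31 RPKM in control libraries, with 7 of 8 under the filter. The part of these markers in the results below was not tested.

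Of the 32 members, 3 rose and 1 fell upon *Ctcflos* KD. *Soat1*, which esterifies cholesterol for storage in lipid droplets, rose most, and among the synthesis enzymes *Hsd17b7* and *Ggps1* rose and *Nsdhl* fell. The sensing genes *Srebf2*, *Scap*, *Insig1* and *Insig2*, the LXR genes and the efflux pumps were not called. Genes were called at an adjusted p under 0.05 in limma-trend on log2(RPKM + 1), over the 11701 genes whose mean reached 1 RPKM, which held all 32 members. The members' share of 12.5% called stood below the 24.0% of all genes tested, and their 3 higher and 1 lower calls compared with 11.5% higher and 12.4% lower over all genes. The KD and control libraries did not overlap in 8 members (25.0%), against 44.8% of all genes tested. The median log2 fold change was 0.03 over the members and 0.03 over all genes, and the median absolute log2 fold change was 0.20 and 0.23, respectively. These shares and medians are descriptions, and they do not set the members apart from other genes. In whole cultures, fewer cells that express a gene and less RNA per cell cannot be told apart.

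**Figure D1:**
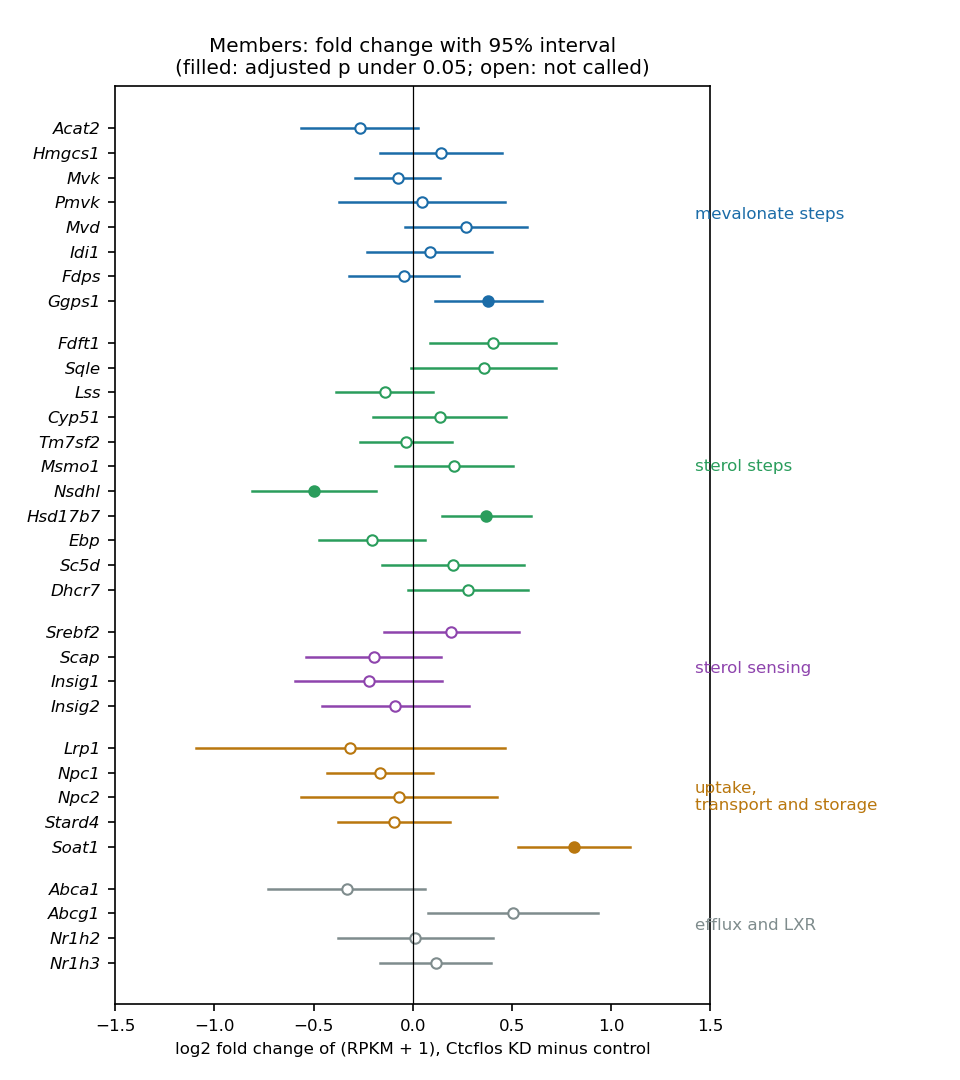
Log2 fold change of (RPKM + 1), *Ctcflos* KD minus control, with 95% interval (bars) for each of the 32 members, in 5 groups by role, from limma-trend on 3 against 3 libraries. Filled points passed an adjusted p of 0.05: *Soat1*, *Hsd17b7* and *Ggps1* lie to the right of 0 and *Nsdhl* to the left, while the open points lie between −0.33 and 0.50.

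The count of called members changed when single libraries were left out, and so did the share of all genes called. Without KD library 3, 8 members were called, 7 of them higher (*Abcg1*, *Fdft1*, *Ggps1*, *Hsd17b7*, *Mvd*, *Soat1* and *Sqle*) and *Nsdhl* lower, and 41.1% of all genes tested were then called. Without KD library 1, *Lrp1* (lower) and *Soat1* were called, against 10.1% of all genes tested. Without KD library 2 or any 1 of the controls, only *Soat1* was called. The share of all genes called was then 9.31% without KD library 2, and 3.60%, 13.5% and 3.16% without control libraries 1, 2 and 3. With libraries scaled by the median of ratios over the genes past the filter, only *Nsdhl* and *Soat1* were called, against 22.3% of all genes tested. The share of all calls that were higher was then 37.7% in place of 48.1%. *Soat1* was the only member called under each of these alternatives.

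**Figure D2:**
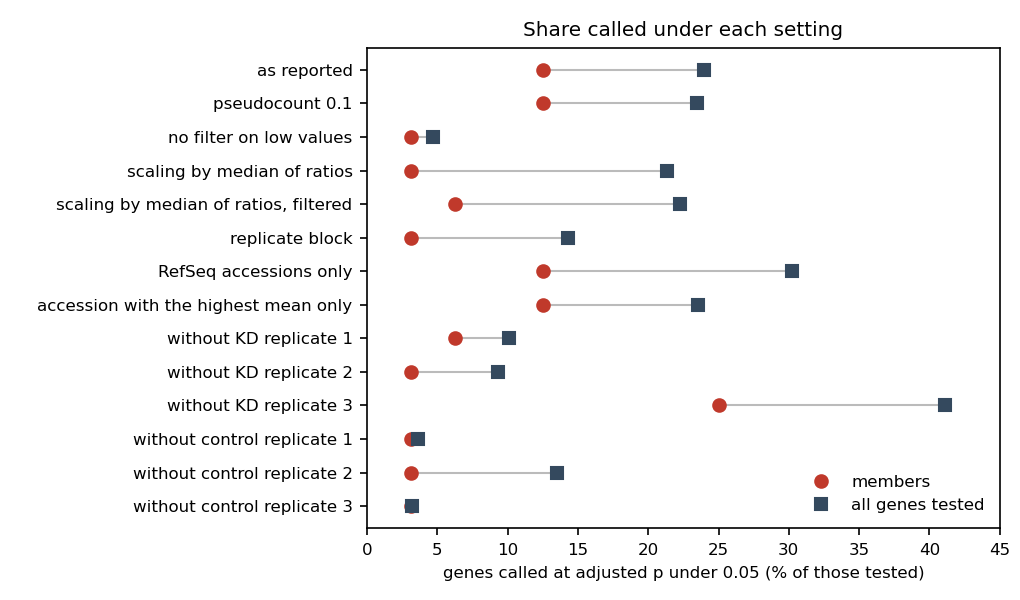
Share called at an adjusted p under 0.05, in percent of those tested, among the 32 members (circles) and among all genes tested (squares) under each setting. The share of members lies below or beside that of all genes in every row, from 3.12% (only *Soat1*) to 25.0% without KD library 3.

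The promoter windows of the 4 called members are shown with that of *Hmgcs1*, which makes HMG-CoA and was the only member whose window held the sterol response element core. The windows are from RefSeq on GRCm38.p6 and run from 250 bases before to 50 bases after an annotated transcription start, 5′ to 3′ in the direction of the gene. Capitals mark the NF-Y box CCAAT, the sterol response element core TCACNCCAC and the E box CACGTG on either strand. The choice of these windows was made after the motif search, since no called member held the sterol response element core.
Soat1 chr1:156474279-156474578 strand -: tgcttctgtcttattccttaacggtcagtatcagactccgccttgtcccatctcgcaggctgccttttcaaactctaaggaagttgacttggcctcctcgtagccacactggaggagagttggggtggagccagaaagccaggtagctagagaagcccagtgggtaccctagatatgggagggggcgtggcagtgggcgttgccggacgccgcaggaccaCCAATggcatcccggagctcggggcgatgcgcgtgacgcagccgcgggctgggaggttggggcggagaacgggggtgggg
Hsd17b7 chr1:169969156-169969455 strand -: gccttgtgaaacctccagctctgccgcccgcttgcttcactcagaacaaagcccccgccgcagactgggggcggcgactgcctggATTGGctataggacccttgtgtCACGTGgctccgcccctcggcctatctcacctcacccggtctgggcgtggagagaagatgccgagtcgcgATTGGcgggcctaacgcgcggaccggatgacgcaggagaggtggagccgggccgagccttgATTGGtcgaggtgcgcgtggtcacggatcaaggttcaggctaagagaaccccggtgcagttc
Ggps1 chr13:14063439-14063738 strand -: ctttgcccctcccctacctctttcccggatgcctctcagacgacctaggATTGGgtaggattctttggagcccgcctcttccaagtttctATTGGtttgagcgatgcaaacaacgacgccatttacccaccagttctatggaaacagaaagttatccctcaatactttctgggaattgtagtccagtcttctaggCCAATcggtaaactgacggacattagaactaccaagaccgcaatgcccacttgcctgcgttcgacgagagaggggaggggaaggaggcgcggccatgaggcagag
Nsdhl chrX:72918271-72918570 strand +: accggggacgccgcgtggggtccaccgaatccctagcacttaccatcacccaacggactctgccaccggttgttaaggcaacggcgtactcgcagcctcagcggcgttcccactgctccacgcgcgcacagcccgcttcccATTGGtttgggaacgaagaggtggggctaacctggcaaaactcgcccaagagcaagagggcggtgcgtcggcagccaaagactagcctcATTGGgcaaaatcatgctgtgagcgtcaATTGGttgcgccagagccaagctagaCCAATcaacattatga
Hmgcs1 chr13:119690101-119690400 strand +: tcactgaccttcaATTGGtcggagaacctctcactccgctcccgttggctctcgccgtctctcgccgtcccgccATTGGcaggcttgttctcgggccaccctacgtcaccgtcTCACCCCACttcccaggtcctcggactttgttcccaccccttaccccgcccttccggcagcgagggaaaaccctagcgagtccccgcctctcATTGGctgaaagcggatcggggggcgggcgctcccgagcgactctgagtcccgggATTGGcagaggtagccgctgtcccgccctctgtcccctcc

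The window of *Soat1* held 1 NF-Y box, 30 bases before the start, and neither of the other motifs. *Hsd17b7* held 3 NF-Y boxes and 1 E box, *Ggps1* held 3 NF-Y boxes, and *Nsdhl*, the member that fell, held 4 NF-Y boxes. *Hmgcs1* held 4 NF-Y boxes and the sterol response element core 137 bases before the start. The table held 33 windows for 26 members, and none for *Fdps*, *Fdft1*, *Sqle*, *Npc1*, *Stard4* and *Abcg1*. An NF-Y box was present in 60.6% of the member windows, from 20 of the 26 genes, against 37.4% of all 32851 windows. An E box was present in 21.2% of the member windows, from 6 genes, against 7.15% of all windows. The sterol response element core was present in 1 member window (3.03% of the member windows), against 1.24% of all windows. A match only describes the letters in these windows. Near matches were not counted, so a window without a match may still hold a variant of the motif.

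*Soat1* encodes sterol O-acyltransferase, which turns free cholesterol into cholesteryl esters, and lies on chromosome 1 (chr1:156424525-156474331, minus strand, GRCm38). It was at 9.91, 9.96 and 7.65 RPKM in KD libraries 1, 2 and 3 and at 4.61, 4.58 and 5.12 RPKM in control libraries 1, 2 and 3. Every KD library was above every control, and KD library 3 was nearest to them. The mean was 9.17 ± 1.32 RPKM (SD, n = 3) in KD and 4.77 ± 0.304 RPKM (SD, n = 3) in controls, a 1.92-fold level, and the log2 fold change was 0.81 (SE 0.122, 95% interval 0.53 to 1.09, limma-trend adjusted p = 0.0071). Leaving out single libraries gave 0.75 to 0.92 and adjusted p-values up to 0.046. The RefSeq mRNA alone gave a log2 fold change of 0.83.

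*Hsd17b7* encodes the 3-keto reductase that acts on sterol intermediates during removal of the methyl groups at carbon 4, and lies at chr1:169949535-169969241 on the minus strand. Its level was 11.5, 12.5 and 11.3 RPKM in KD libraries 1, 2 and 3 and 8.86, 9.02 and 8.71 RPKM in the controls. The groups did not overlap and the controls lay close together, with means of 11.8 ± 0.632 RPKM (SD, n = 3) and 8.87 ± 0.156 RPKM (SD, n = 3). The log2 fold change was 0.37 (SE 0.0975, adjusted p = 0.030).

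*Nsdhl* encodes the decarboxylating sterol dehydrogenase that acts in the same demethylation complex, directly before HSD17B7. It lies on the X chromosome (chrX:72918557-72958514, plus strand). Its level was 10.7, 13.0 and 15.0 RPKM in KD libraries 1, 2 and 3 and 18.5, 17.7 and 19.3 RPKM in the controls. Every KD library was below every control, and the KD libraries differed more among themselves than the controls, with means of 12.9 ± 2.15 RPKM and 18.5 ± 0.801 RPKM (SD, n = 3 each). The log2 fold change was −0.50 (SE 0.136, adjusted p = 0.034). The log2 fold changes of these enzymes of 2 successive steps of the same complex thus had opposite signs. Each call held in 1 of the 6 runs that left out a library, with limma-trend adjusted p-values up to 0.13. *Hsd17b7* also lost its call under both other scalings (adjusted p = 0.13 and 0.16). *Nsdhl* lost its call under the median of ratios scaling over all genes (adjusted p = 0.052). *Msmo1*, the methyl sterol oxidase that opens this demethylation, had overlapping groups with 32.7 ± 4.32 RPKM in KD and 28.0 ± 1.26 RPKM in control (SD, n = 3 each), a log2 fold change of 0.21 and an adjusted p of 0.27.

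*Ggps1* encodes geranylgeranyl pyrophosphate synthase, which draws farnesyl pyrophosphate from the sterol branch into protein prenylation, and lies at chr13:14050659-14063488 on the minus strand. Its level was 6.76, 7.90 and 5.96 RPKM in KD libraries 1, 2 and 3 and 4.82, 4.87 and 5.39 RPKM in the controls. The groups did not overlap, and KD library 3 was again nearest to the controls. The log2 fold change was 0.38 (SE 0.117) with an adjusted p of 0.049, the nearest to the threshold among the called members. The call held in 1 of the 6 runs that left out a library. It was lost under both other scalings (limma-trend adjusted p = 0.13 and 0.14).

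**Figure D3:**
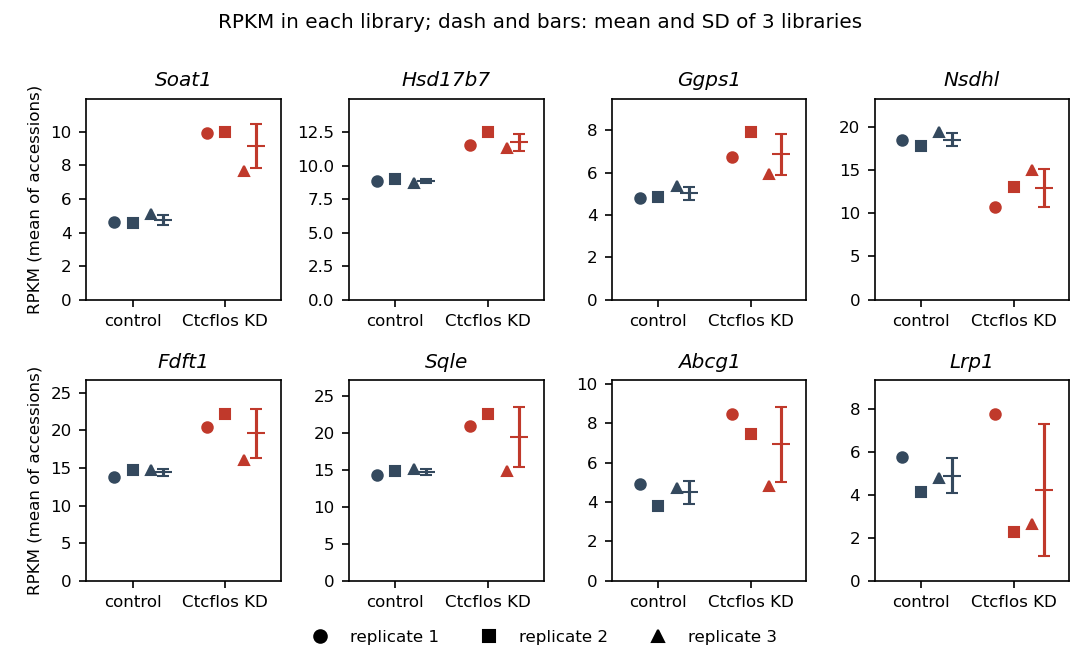
RPKM (mean of all accessions of a gene) in each library for the 4 called members (upper row) and for 4 members called only when a single KD library was left out (lower row), with symbols for replicate numbers and a dash with bars for mean and SD of 3 libraries. KD library 3 (triangle) lies nearest to the controls in *Soat1*, *Ggps1*, *Fdft1*, *Sqle* and *Abcg1*, and KD library 1 (circle) stands apart in *Lrp1*.

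Among the 8 enzymes from acetyl-CoA to farnesyl and geranylgeranyl pyrophosphate, *Ggps1* was the only one called (12.5%, against 24.0% of all genes tested). *Hmgcs1*, which makes HMG-CoA, was the highest of them at 118, 141 and 142 RPKM in KD libraries 1, 2 and 3 and 128, 113 and 121 RPKM in the controls. KD libraries 2 and 3 were above all controls and KD library 1 was among them, with a log2 fold change of 0.14 (95% interval −0.17 to 0.45, adjusted p = 0.46). *Pmvk*, the phosphomevalonate kinase, was at 50.3, 58.5 and 37.3 RPKM in KD and 49.4, 40.6 and 49.6 RPKM in control libraries. The KD libraries spanned the controls on both sides. The log2 fold change was 0.05 (95% interval −0.37 to 0.46) and turned negative under both other scalings. *Acat2*, a cytosolic acetyl-CoA acetyltransferase at the start of the route, was at 24.2, 29.0 and 29.6 RPKM in KD and 34.1, 30.5 and 35.5 RPKM in control libraries. All KD libraries were below all controls, but the difference was not called (log2 fold change −0.27, 95% interval −0.56 to 0.03, adjusted p = 0.16). The others, *Mvk*, *Mvd*, *Idi1* and *Fdps*, had control means from 3.56 to 23.0 RPKM, overlapping groups and log2 fold changes from −0.08 to 0.27.

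Of the 11 enzymes from squalene to cholesterol, *Hsd17b7* and *Nsdhl* were called (18.2%, against 24.0% of all genes tested) and 9 were not. *Fdft1*, the squalene synthase and the first enzyme committed to sterols, was at 20.5, 22.2 and 16.0 RPKM in KD libraries 1, 2 and 3 and at 13.8, 14.7 and 14.7 RPKM in the controls. The groups did not overlap, and the log2 fold change was 0.41 (SE 0.137, 95% interval 0.09 to 0.72, adjusted p = 0.065). *Sqle*, the squalene epoxidase and a rate-limiting step, was at 20.9, 22.6 and 14.8 RPKM in KD and 14.2, 14.8 and 15.1 RPKM in control libraries. KD libraries 1 and 2 were above all controls and KD library 3 lay among them, and the log2 fold change was 0.36 (95% interval −0.01 to 0.72, adjusted p = 0.13). Without KD library 3, the log2 fold change was 0.54 for *Fdft1* (adjusted p = 0.0065) and 0.53 for *Sqle* (adjusted p = 0.0066). *Dhcr7*, which makes cholesterol from 7-dehydrocholesterol, lay above the controls in all KD libraries (8.65 ± 1.40 against 6.93 ± 0.664 RPKM, SD, n = 3 each, adjusted p = 0.16). *Lss*, which closes the rings of squalene epoxide to lanosterol, lay below them (14.3 ± 0.725 against 15.8 ± 0.994 RPKM, SD, n = 3 each, adjusted p = 0.35). The remaining *Cyp51*, *Tm7sf2*, *Ebp* and *Sc5d* had overlapping groups, control means from 1.26 to 30.6 RPKM and log2 fold changes from −0.21 to 0.20.

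Over the 19 synthesis enzymes, 2 rose, 1 fell and 16 did not pass the test. The share called was 15.8%, against 24.0% of all genes tested. The median log2 fold change was 0.14, against 0.03 over all genes, and these values do not set the enzymes apart from other genes. The 95% intervals of the 16 reached from −0.56 to 0.72, so that changes within these limits are not excluded for single enzymes. The 3 KD libraries were not alike for these genes. KD library 3 was the lowest of the 3 KD libraries in 15 of the 19 enzymes and in 22 of the 32 members, and KD library 2 was the highest in 12 and 18, respectively. This order was not counted over all genes. The median of ratios factors of KD libraries 1, 2 and 3 were 1.03, 1.03 and 0.971 over genes past the filter. Over all genes they were 1.12, 0.941 and 1.00. KD library 3 also had the lowest depth of the 6 libraries and the highest *Ctcflos* level of the KD libraries. The part of the scaling factors, the depth or the *Ctcflos* level in these values was not tested.

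**Figure D4:**
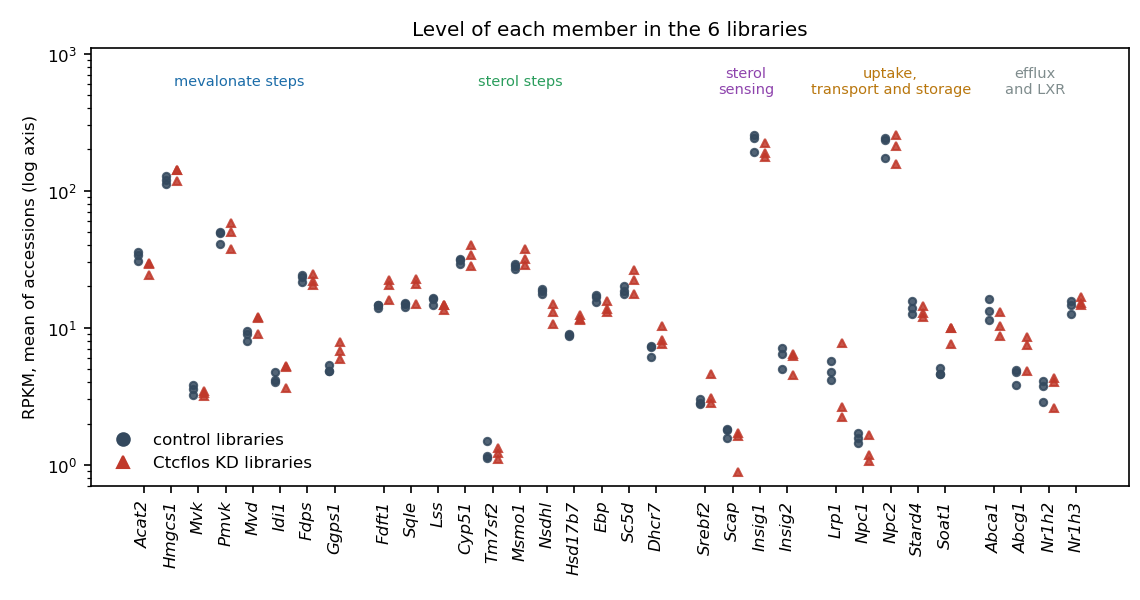
RPKM of each member in the 3 control (circles) and 3 *Ctcflos* KD libraries (triangles) on a log axis, in 5 groups by role. *Insig1*, *Npc2* and *Hmgcs1* have the highest levels, above 100 RPKM in every library, and *Tm7sf2*, *Npc1* and *Scap* the lowest, at control means of 1.26, 1.57 and 1.73 RPKM.

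None of the 4 sterol sensing genes was called or had groups that did not overlap. *Srebf2*, which encodes the SREBP2 precursor, was at 4.63, 2.82 and 3.05 RPKM in KD libraries 1, 2 and 3 and at 3.02, 2.78 and 2.82 RPKM in the controls. KD library 1 stood above the other 5 libraries, which lay close together, and the log2 fold change was 0.19 (95% interval −0.15 to 0.54, adjusted p = 0.36). *Scap*, the sterol-sensing escort of SREBP2, was at 1.62, 0.882 and 1.72 RPKM in KD and 1.81, 1.81 and 1.57 RPKM in control libraries. KD library 2 was the lowest, and the other 2 KD libraries lay among the controls (log2 fold change −0.20, 95% interval −0.54 to 0.14, adjusted p = 0.35).

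*Insig1*, which retains SCAP in the endoplasmic reticulum and is itself a SREBP target, had the highest control mean of all members. It was at 177, 221 and 190 RPKM in KD libraries and at 242, 191 and 256 RPKM in the controls. KD libraries 1 and 3 were below all controls and KD library 2 was between them, with a log2 fold change of −0.22 (95% interval −0.59 to 0.15, adjusted p = 0.34). *Insig2*, the less abundant paralog, was at 6.27, 6.46 and 4.51 RPKM in KD and 6.45, 4.96 and 7.08 RPKM in control libraries. The groups overlapped (log2 fold change −0.09, 95% interval −0.46 to 0.28, adjusted p = 0.71). At the level of RNA, the control mean of *Insig1* was 229 ± 34.4 RPKM and that of *Insig2* 6.16 ± 1.09 RPKM (SD, n = 3 each).

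Of the genes of uptake, transport and storage, only *Soat1* was called. *Npc2*, which hands lysosomal cholesterol to NPC1, was at 212, 256 and 157 RPKM in KD libraries 1, 2 and 3 and at 235, 172 and 243 RPKM in the controls. The KD libraries spanned the controls on both sides (log2 fold change −0.07, 95% interval −0.56 to 0.43, adjusted p = 0.83). *Npc1* and the cytosolic sterol carrier *Stard4* overlapped between groups, with log2 fold changes of −0.17 and −0.09. *Lrp1*, an endocytic lipoprotein receptor, was at 7.79, 2.25 and 2.66 RPKM in KD and 5.74, 4.15 and 4.79 RPKM in control libraries. KD library 1 was above all controls and KD libraries 2 and 3 were below all of them. The log2 fold change was −0.31 (95% interval −1.09 to 0.46, adjusted p = 0.52) and −0.76 without KD library 1 (adjusted p = 0.027). The longest *Lrp1* transcript has 14.9 kb. Over the 184 tested genes with a transcript of at least 10 kb, the median shift against those under 2 kb was 0.05, −0.32 and 0.02 on the log2 scale in KD libraries 1, 2 and 3 and −0.13 to 0.08 in the controls, and its part in the *Lrp1* values was not tested.

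The efflux and LXR genes were not called. *Abcg1*, which exports cholesterol to HDL, was at 8.50, 7.48 and 4.82 RPKM in KD libraries 1, 2 and 3 and at 4.94, 3.82 and 4.72 RPKM in the controls. KD libraries 1 and 2 were above all controls and KD library 3 lay among them, with a log2 fold change of 0.50 (SE 0.185, adjusted p = 0.082) and 0.71 without KD library 3 (adjusted p = 0.0036). *Abca1*, which loads cholesterol onto apolipoprotein A1, was at 13.0, 8.74 and 10.3 RPKM in KD and 16.3, 11.4 and 13.3 RPKM in control libraries, with a log2 fold change of −0.33 (95% interval −0.73 to 0.06, adjusted p = 0.19). The point estimates of the 2 pumps thus had opposite signs, and neither passed the test.

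Both LXR genes had overlapping groups. *Nr1h3* (LXRα) was at 14.6, 16.9 and 15.2 RPKM in KD and 14.5, 12.6 and 15.8 RPKM in control libraries, with a log2 fold change of 0.12 (95% interval −0.16 to 0.40, adjusted p = 0.51). *Nr1h2* (LXRβ) was at 4.30, 4.04 and 2.60 RPKM in KD and 3.74, 2.89 and 4.10 RPKM in control libraries, with a log2 fold change of 0.01 (95% interval −0.38 to 0.40, adjusted p = 0.96) that changed sign with the scaling.

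The table lists several accessions for most genes, and these overlap and share reads. The 32 members had 266 accessions, of which 245 passed the filter and 23 were called (19 higher and 4 lower, in 6 genes). Their share of 9.39% compared with 26.0% of all accessions tested. The calls fell on 6 of 7 *Soat1*, 6 of 7 *Hsd17b7*, 4 of 9 *Ggps1*, 4 of 5 *Nsdhl*, 2 of 4 *Fdft1* and 1 of 12 *Msmo1* accessions. Accession usage was called in none of the 32 members by limma diffSplice. This test asks whether the log2 fold change of an accession differs from that of the gene's other accessions. As the log2(RPKM + 1) scale understates the change of low accessions, such a difference need not be a change of share. *Soat1* and *Acat2* were the 2 members with an unadjusted p under 0.05. Over all genes tested for usage, 0.668% were called and 370 of 10027 had an unadjusted p under 0.05. Without KD library 3, the usage of *Soat1* was called. The share of all genes called in usage was not counted for that run, in which 41.1% of all genes tested were called in abundance.

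Further genes of sterol and lipid metabolism were read from 6 lists, whose counts stand against the 24.0% of all genes tested that were called (11.5% higher and 12.4% lower). These counts describe the lists and do not set them apart from other genes. Of 11 tested genes that process SREBPs or turn over HMG-CoA reductase, 3 (27.3%) rose and none fell, with a median log2 fold change of 0.28. These were *Pgrmc1*, a sterol-binding membrane protein, with 109 ± 21.6 against 72.2 ± 6.20 RPKM (log2 fold change 0.57, adjusted p = 0.046), *Spring1*, which is needed for SREBP cleavage (0.45, adjusted p = 0.018), and *Rnf145*, a ubiquitin ligase of HMG-CoA reductase and SCAP (0.36, adjusted p = 0.045). *Spring1* is listed as *2410131K14Rik*. *Pgrmc1* and *Rnf145* lost their calls under the scaling over genes past the filter, with adjusted p-values of 0.098 and 0.096, and both were called in 1 of the 6 runs that left out a library. *Spring1* was called in 2 of these runs and lay just past the threshold when low genes were kept in the test (adjusted p = 0.05001).

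Of 14 genes of SREBP1 and fatty acid synthesis, 3 (21.4%) fell and none rose. *Acaca*, the cytosolic acetyl-CoA carboxylase that makes malonyl-CoA, fell from 28.9 ± 3.59 to 8.75 ± 2.48 RPKM (SD, n = 3 each, log2 fold change −1.64, adjusted p = 0.0033). *Gpam*, which starts glycerolipid synthesis, fell by 0.86 and the fatty acid elongase *Elovl6* by 0.49 on the log2 scale. *Acaca* was called in all 6 runs that left out a library, *Gpam* in 5 and *Elovl6* in 1, with an adjusted p of up to 0.13 for the last. *Srebf1* (0.12), *Fasn* (−0.11) and *Scd1* (−0.12) were not called.

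Of 12 tested genes of the isoprenoid branches, 3 (25.0%) were called. *Cox10* (−0.79), the heme A farnesyltransferase, *Pdss2* (−0.41), a subunit of the synthase of the coenzyme Q side chain, and *Zmpste24* (−0.35), the protease of farnesylated prelamin A, fell on the log2 scale and none rose. *Cox10* was called in all 6 runs that left out a library and the other two in 1 each, and *Zmpste24* lost its call under the scaling over genes past the filter (adjusted p = 0.057). Of 7 oxysterol and sterol turnover genes, 3 passed the filter and 2 of these (66.7%) fell. *Cyp7b1*, the 7α-hydroxylase of oxysterols, was at 2.40, 2.72 and 3.45 RPKM in KD libraries 1, 2 and 3 and at 13.7, 11.2 and 15.9 RPKM in the controls (log2 fold change −1.92, SE 0.154, adjusted p = 0.0020), and *Hsd3b7*, the next enzyme on that route, fell by 0.61. *Cyp7b1* was called in all 6 runs that left out a library and *Hsd3b7* in 4.

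Of 15 tested sterol carrier and contact site genes, 5 (33.3%) fell and none rose. The 5 belong to the oxysterol-binding protein family: *Osbpl8* (−1.02), *Osbpl11* (−0.84), *Osbpl1a* (−0.59), *Osbpl5* (−0.47) and *Osbpl2* (−0.37 on the log2 scale). Of the same family, *Osbpl9* (−0.03) and *Osbp* (−0.38) were not called. *Osbpl8* was called in all 6 runs that left out a library, *Osbpl11* and *Osbpl5* in 4, and *Osbpl1a* and *Osbpl2* in 2. Of 6 tested further LXR targets, 1 (16.7%) was called. *Arl4c*, a small GTPase, rose (log2 fold change 0.61, adjusted p = 0.013, called in 4 of the 6 runs that left out a library) and none fell.

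The genes of these lists that fell were often long. Of the 13 that fell, 7 span at least 100 kb of genome (*Acaca*, *Elovl6*, *Pdss2*, *Cox10*, *Cyp7b1*, *Osbpl1a* and *Osbpl8*), and of the 4 that rose, none of the 3 with a known span did. Among all tested genes with a span, 45.3% of the 886 of at least 100 kb and 10.2% of the 8063 shorter ones were called lower. The median shift of the long genes against the shorter ones was −0.39, −0.56 and −0.23 on the log2 scale in KD libraries 1, 2 and 3, and −0.05 to 0.03 in the controls. The members were mostly short, with spans from 4.34 to 129 kb (median 18.2 kb) and only *Abca1* at 100 kb or more. The part of gene length in these results was not tested.

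**Figure D5:**
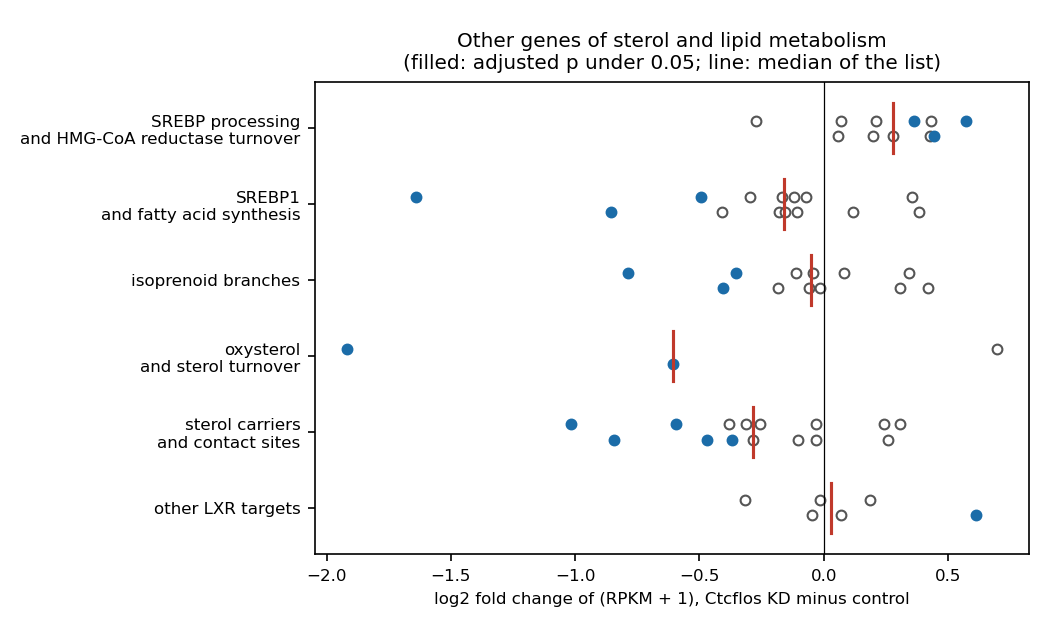
Log2 fold change of (RPKM + 1), *Ctcflos* KD minus control, for each tested gene of 6 further lists of sterol and lipid metabolism (filled: adjusted p under 0.05, vertical line: median of the list). *Acaca* (−1.64) and *Cyp7b1* (−1.92) lie far to the left, and the called genes of SREBP processing lie to the right of 0.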

How the data were processed

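RNA-seq was done on total RNA of 3 *Ctcflos* KD and 3 control libraries of primary brite adipocytes, prepared with a stranded kit. The authors deposited 1 table of RPKM values per accession, written with decimal commas, in which replicates were not pooled. The tools that made this table are not given in the sources used here. Of 168326 lines, 305 exact repeats were removed. The accessions of a symbol were averaged to give the gene value. Differences in abundance were tested with limma-trend (limma 3.58.1, R 4.3.3) on log2(RPKM + 1) for genes or accessions with a mean RPKM of at least 1, and usage with diffSplice (Simes p-values). Benjamini-Hochberg adjustment ran over every gene or accession tested, with calls at an adjusted p under 0.05. A fold change on the log2(RPKM + 1) scale understates the change of low genes. Whether counting used the strand is not stated, so antisense or overlapping genes and accessions may share reads.

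Depth was recovered from low values, of which 96.3 to 96.8% were whole reads within 0.1 read. Count tests were not used, as lengths are not known for every accession. Scripts were tested on simulated data. The members and gene lists were chosen with earlier results of these data known. Values in every library are given, by a rule, for called members, for those with the 5 highest control means and for sensing and LXR genes; *Fdft1*, *Sqle*, *Lrp1*, *Abca1*, *Abcg1* and *Cyp7b1* were added after their values were seen. Older symbols were used for *Msmo1*, *Spring1* and *Adgre1*. Gene spans are from Gencode on GRCm38. Alternatives were a pseudocount of 0.1, no filter, scaling by the median of ratios (over all genes and, added after the data were seen, over genes past the filter), a replicate block, RefSeq accessions only, the accession with the highest mean only, and leaving out each library.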

Additional observations from a re-analysis of the deposited data

How the results depend on the processing

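The number of members called was 4 with a pseudocount of 0.1, with RefSeq accessions only and with the accession of highest mean only, 1 without a filter, 1 with the median of ratios scaling, 2 with that scaling over the genes past the filter, and 1 to 8 when single libraries were left out. Of all genes tested, the share called was 23.5% with a pseudocount of 0.1, 30.3% with RefSeq accessions only and 23.5% with the accession of highest mean only. It was 4.71% without a filter, 21.3% with the median of ratios scaling and 22.3% with that scaling over the genes past the filter. When single libraries were left out, it ranged from 3.16% to 41.1%. *Soat1* was called under every alternative run. The number of member accessions called was 12 without a filter, 11 with the median of ratios scaling and 6 to 51 when single libraries were left out, and the number of members called in usage was 0 to 1 when single libraries were left out. The shares of all accessions called, and of all genes called in usage, were not counted for these settings. These counts can therefore not be told apart from a general change in the number of calls. *Ctcflos* stayed lower in each run, from −0.72 to −0.63 on the log2 scale when single libraries were left out, with adjusted p-values up to 0.13. Single members that changed sign were all far from the threshold. *Pmvk* was at −0.0028 with the median of ratios scaling and −0.032 over the genes past the filter. *Nr1h2* was at −0.028 and −0.052 in these, at −0.040 with RefSeq accessions only and at −0.033 with the accession of highest mean only. *Tm7sf2* was at 0.019 in both of the latter. When single libraries were left out, log2 fold changes ranged from −0.094 to 0.22 for *Pmvk*, −0.12 to 0.019 for *Fdps*, −0.075 to 0.042 for *Tm7sf2*, −0.21 to 0.052 for *Insig2*, −0.23 to 0.12 for *Npc2* and −0.10 to 0.19 for *Nr1h2*. The cause of these changes was not tested beyond the smaller number of samples or genes that each alternative uses.

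With the replicate block, 1 member (*Soat1*, adjusted p = 0.025) and 6 member accessions were called, and adjusted p-values were 0.11 for *Ggps1*, 0.084 for *Hsd17b7*, 0.063 for *Nsdhl* and 0.11 for *Ctcflos* (log2 fold change −0.66). The share of all genes called was 14.3% with the block, and that of all accessions was not counted. Of the wider lists, *Rnf145*, *Spring1*, *Pgrmc1*, *Elovl6*, *Zmpste24* and *Osbpl2* lost their calls with the block (adjusted p = 0.05004 to 0.0997); these and *Pdss2* and *Osbpl1a* lost them without a filter. The labels do not say that equal numbers mark a shared culture, and deviations of equally numbered libraries from their group means correlated at 0.29, −0.29 and −0.42 across genes, so that the numbers were not taken as pairs.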

Other observations

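Several genes of the wider lists had groups that did not overlap without passing the test, and they are named here after their values were seen. In SREBP processing, *Faf2* had 5.62 RPKM in KD and 3.88 RPKM in control libraries (limma-trend log2 fold change 0.43, adjusted p = 0.052). In the isoprenoid branches, *Nus1*, a subunit of the dolichol synthase, had 35.6 and 26.2 RPKM (0.42, adjusted p = 0.076), and *Rabggtb*, a subunit of the Rab geranylgeranyl transferase, had 12.5 and 9.67 RPKM (0.34, adjusted p = 0.056). Among sterol carriers, *Osbp* had 4.91 and 6.63 RPKM (−0.38, adjusted p = 0.097). *Ch25h*, which makes 25-hydroxycholesterol, differed between KD libraries, with 11.2, 13.4 and 3.58 RPKM in KD libraries 1, 2 and 3 and 3.36, 5.32 and 5.86 RPKM in the controls (0.70, adjusted p = 0.23).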
